A study of Homo sapiens with 6 samples.

Results

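The transcripts described here are the H/ACA small nucleolar RNAs (snoRNAs) and the small Cajal body RNAs (scaRNAs), taken as every transcript with a gene symbol that starts with SNORA or SCARNA and selected on a level, averaged over the 6 libraries, of at least 1 RPKM. RPKM counts reads per kilobase of transcript, scaled to the mapped reads of the library. They were 153 of the 54671 transcripts in the table that reached this mean, 132 of them SNORA and 21 SCARNA, with 112 symbols. The table held 437 SNORA and SCARNA transcripts in all, and the other 284 stayed under the minimum. They were chosen by the level over all 6 libraries and not by the difference between the groups. Still, 12 had a mean under 1 RPKM in the D391N libraries and 1 had a mean under 1 RPKM in the controls. These reached the minimum only through the other group, so that the direction of their difference in mean RPKM follows from the filter. They are part of all counts over the 153 below. Of the transcripts just inside the minimum, SNORA57 (ENST00000383870) had 1.06, SCARNA17 had 1.07 and SNORA26 (ENST00000391215) had 1.07 RPKM, and just outside it a further SNORA57 transcript (ENST00000391265) had 0.992, SNORA51 (ENST00000364993) had 0.987 and SNORA16B had 0.961 RPKM.

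The RNA-seq compared 3 libraries of cells that overexpressed DIS3L2 D391N, the catalytic site mutant of an exoribonuclease that degrades uridylated RNAs from the 3′ end, with 3 libraries of empty control cells. Both came from HEK293T-Rex, which the labels call HEK293, a line derived from human embryonic kidney and equipped with the tetracycline repressor for inducible expression. D391N was stably integrated with a C-terminal Flag tag and induced with doxycycline, the endogenous DIS3L2 gene was left in place in both groups, and each group was 1 line. Whether the control cells also received doxycycline was not given in the sources used here, and nothing says that the replicates were separate cultures, so that p-values measure the spread between these libraries only.

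H/ACA RNAs fold into hairpins followed by a short single-stranded H box and a terminal ACA, and pair with ribosomal RNA to direct the change of single uridines to pseudouridine. They are bound by the pseudouridine synthase dyskerin (DKC1) and by NHP2, NOP10 and GAR1. In human cells most are cut out of the introns of host genes, whose exons often code for ribosomal proteins and translation factors. The scaRNAs do the same for the small nuclear RNAs (snRNAs) of the spliceosome and are held in Cajal bodies, and this name also covers box C/D guides of 2′-O-methylation and molecules that join both kinds.

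The sequences below show the transcripts on which the results turn, with the H box motif (ANANNA, searched between 40 and 65% of the length, the match nearest the middle) and an ACA that ends at most 4 bases before the 3′ end in capitals. They are given 5′ to 3′ as DNA from the GENCODE annotation of GRCh37, matched by transcript identifier, whereas the deposited levels were made on hg38. SNORA62 (chr3:39452545-39452697, + strand, in RPSA) was the transcript with the highest mean level, SNORA64 (chr16:2012974-2013107, - strand, in RPS2) and SNORA48 (chr17:7478031-7478165, + strand, in EIF4A1) were among the 5 with the lowest log2 fold changes, and SNORA23 (chr11:9450320-9450501, + strand, in an intron of IPO7) was in the study's list of RNAs cross-linked to D391N. SCARNA4 (chr1:155895749-155895877, - strand, in an intron of KHDC4) had the highest mean level among the scaRNAs, and SCARNA12 (chr12:7076500-7076769, - strand, in PHB2) is one of the long ones. The SNORA58 transcript in UBAP2L (chr1:154232203-154232338, + strand) and its copy in an intron of NDC1 (chr1:54236691-54236826, - strand) share 84.6% of aligned positions and differed in their change.
SNORA62: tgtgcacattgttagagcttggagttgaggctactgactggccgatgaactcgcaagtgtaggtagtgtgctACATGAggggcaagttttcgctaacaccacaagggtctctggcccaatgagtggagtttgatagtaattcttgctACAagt
SNORA64: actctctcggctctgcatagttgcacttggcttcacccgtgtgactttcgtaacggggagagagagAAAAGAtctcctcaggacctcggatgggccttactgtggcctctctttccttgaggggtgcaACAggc
SNORA48: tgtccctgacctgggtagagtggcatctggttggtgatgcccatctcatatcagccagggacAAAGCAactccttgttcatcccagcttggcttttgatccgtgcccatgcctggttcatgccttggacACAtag
SNORA23: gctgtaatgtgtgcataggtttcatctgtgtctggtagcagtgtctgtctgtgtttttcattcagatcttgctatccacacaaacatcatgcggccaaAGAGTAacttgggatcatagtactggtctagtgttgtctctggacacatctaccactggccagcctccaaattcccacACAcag
SCARNA4: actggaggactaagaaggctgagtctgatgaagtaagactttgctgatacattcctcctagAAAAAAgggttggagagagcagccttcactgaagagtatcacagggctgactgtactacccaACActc
SCARNA12: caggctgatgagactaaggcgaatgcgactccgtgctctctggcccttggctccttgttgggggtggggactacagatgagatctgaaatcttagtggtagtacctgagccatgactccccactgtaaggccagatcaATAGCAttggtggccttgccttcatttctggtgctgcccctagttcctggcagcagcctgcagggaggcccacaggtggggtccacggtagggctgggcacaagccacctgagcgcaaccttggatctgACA
SNORA58 in UBAP2L: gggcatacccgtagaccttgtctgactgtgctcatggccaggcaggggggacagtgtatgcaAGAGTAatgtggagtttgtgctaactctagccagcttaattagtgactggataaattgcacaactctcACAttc
SNORA58 copy in NDC1: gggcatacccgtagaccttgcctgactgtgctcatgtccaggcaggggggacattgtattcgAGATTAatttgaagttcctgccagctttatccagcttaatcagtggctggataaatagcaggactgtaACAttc

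The names were checked against these motifs. Among the 102 SNORA and SCARNA transcripts with a mean of at least 10 reads, 87 (85.3%) had the terminal ACA and 81 (79.4%) had both motifs. Of all SNORD transcripts of the same annotation, the box C/D snoRNAs, 23 (5.88%) had the ACA and 6 (1.53%) had both. A match is a description of the letters, and the ANANNA motif alone was also found in 189 (48.3%) of the SNORD transcripts. The label H/ACA does not cover every scaRNA: SCARNA7 and SCARNA9 are known as box C/D scaRNAs, SCARNA5, SCARNA6 and SCARNA12 as molecules of both kinds, and SCARNA13 as a tandem of H/ACA units.

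Reads behind each value were estimated from the posterior variance that accompanies it. Of the 153 transcripts, 148 reached 3 reads in at least 1 library, 102 had a mean of at least 10 reads and 51 had fewer. The levels spanned a wide range, with 42 transcripts at a mean of at least 100 RPKM, 53 between 10 and 100, and 58 under 10. Relative to the deepest library (control replicate 2), the 3 D391N libraries had depths of 0.724, 0.621 and 0.807, and controls 1 and 3 had 0.947 and 0.673. DIS3L2, summed over its 5 tested transcripts, had 366, 461 and 507 RPKM with D391N against 8.75, 9.93 and 11.4 RPKM without it, in keeping with the labels, and 3 of the 5 were higher by limma with Benjamini-Hochberg adjustment.

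The main question was whether these RNAs differed between D391N-expressing and control cells. Most of them had lower levels in the D391N libraries, but the D391N libraries differed so much among themselves that no single transcript passed the test. The median log2 fold change, D391N over control on the log2(RPKM + 0.1) scale, was -1.62 over the 153 transcripts and -0.072 over all 54671 tested. Of the 153, 136 were lower and 17 higher in the mean. With limma, 0 of the 153 passed a Benjamini-Hochberg adjusted p of 0.05, where 33 of all tested transcripts (0.0604%) did. At an unadjusted p under 0.05 there were 67 (43.8%), beside 17.6% of all tested.

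In 65 of the 153 transcripts (42.5%) every D391N library lay below every control library, whereas 15.6% of all tested transcripts did so. In the opposite direction 1 of the 153 had all D391N libraries above all controls, beside 10.1% of all tested. Among the 102 with at least 10 mean reads the median was -1.87, 99 were lower and 54 (52.9%) showed no overlap, beside 15.9% of all tested with as many reads. Among the 51 with fewer reads the median was -0.80, 37 were lower and 11 (21.6%) showed no overlap.

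The D391N libraries did not take part alike. Relative to the mean of the controls, the median transcript of the 153 was found at -0.23 in D391N replicate 1, -3.09 in replicate 2 and -1.66 in replicate 3 on the log2 scale, and the control libraries lay at 0.10, -0.17 and 0.10. The median of all tested transcripts was at -0.038, -0.0040 and -0.12 in the same D391N libraries. Summed over the 153, the level came to 21670, 2615 and 6813 RPKM for the D391N replicates in order, beside 27158, 21505 and 27092 RPKM for the controls. So D391N replicate 1 lay within the range of the controls in this sum, and replicates 2 and 3 lay far below it. The summed share of all transcripts under 200 bases, the SNORA and SCARNA transcripts included, had the same order, with 2.43, 0.342 and 1.52% of the length-weighted level with D391N compared with 3.18, 3.08 and 2.89% for the controls. The 90 transcripts under 150 bases with at least 10 reads that were neither snoRNA, scaRNA nor snRNA did not have this order in their medians. These were -0.12, 0.11 and -0.79 in D391N replicates 1 to 3. Their summed level was 6241, 2166 and 2165 RPKM with D391N against 6359, 4816 and 13344 RPKM for the controls. In that sum D391N replicate 1 also lay within the range of the controls, and replicates 2 and 3 lay below it. The part of the summed share in the changes of the SNORA and SCARNA transcripts was not tested. Total RNA depleted of ribosomal RNA was sequenced, so that a lower level per cell and a lower share of short RNA in a library cannot be told apart.

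**Figure D1:**
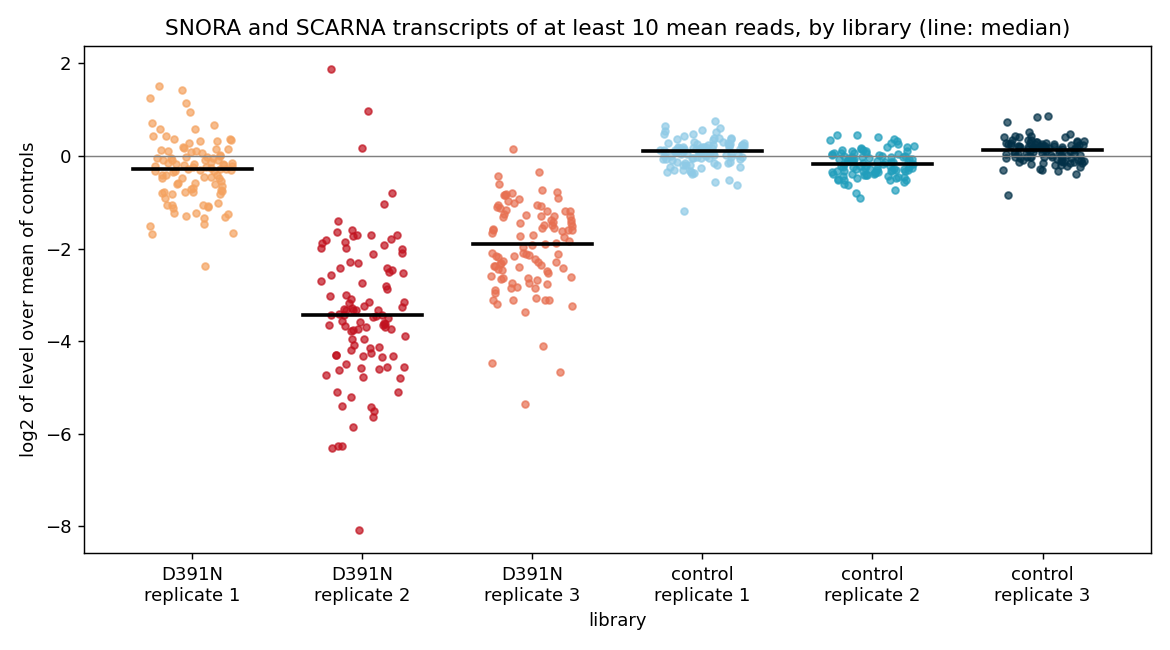
Log2 of the level of each of the 102 SNORA and SCARNA transcripts with a mean of at least 10 reads over the mean of the 3 controls (y axis, pseudocount 0.1 RPKM) in each library (x axis). Points are transcripts with a random sideways shift and lines are medians, which fall at -0.28, -3.44 and -1.91 for the D391N replicates but between -0.18 and 0.13 for the controls.

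Without D391N replicate 1, 85 of the 153 transcripts passed the adjusted threshold, 84 lower (54.9%) and 1 higher, where 5.23% of all tested transcripts were called lower in that fit. The median fold change was then -2.32. Without any other single library no transcript passed, and the median was between -0.96 (without D391N replicate 2) and -1.66 (without control replicate 2). Of the 102 transcripts with at least 10 reads, 54 were below all controls in D391N replicate 1, 99 in replicate 2 and 101 in replicate 3 (52.9, 97.1 and 99.0%), where 34.6, 39.5 and 41.9% of all tested transcripts were. Of the 36 transcripts named by rule, 20 passed without D391N replicate 1, all of them lower, among them SNORA30 (log2 fold change -4.78, limma adjusted p = 0.00313), SNORA23 (-3.42, adjusted p = 0.00568), SNORA62 (-3.37, adjusted p = 0.0290) and SCARNA4 (-3.51, adjusted p = 0.0353).

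The 10 SNORA and SCARNA transcripts with the highest mean level were all lower in the mean of the D391N libraries. With the D391N replicates 1 to 3 named first and the control replicates 1 to 3 second, here and further on, SNORA62 was at 1479, 127 and 477 RPKM against 2508, 1899 and 3435 RPKM. The groups did not overlap, and the log2 fold change was -2.50 ± 0.85 (SE, limma adjusted p = 0.223). SNORA64 was at 418, 12.7 and 118 RPKM against 765, 1145 and 1105 RPKM, also without overlap. Its log2 fold change was -3.53 ± 1.16 (SE, limma adjusted p = 0.213). SCARNA4, a guide for spliceosomal snRNA, was at 265, 32.2 and 175 RPKM against 949, 696 and 954 RPKM. All its D391N libraries lay well below its controls, and its log2 fold change was -2.91 ± 0.76 (SE, limma adjusted p = 0.164).

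SNORA14B and SNORA49 also had groups that did not overlap. SNORA14B, in an intron of TOMM20, was at 892, 272 and 634 RPKM against 2010, 1365 and 1357 RPKM. SNORA49, in an intron of EP400, was at 844, 73.1 and 259 RPKM against 919, 941 and 987 RPKM, so that D391N replicate 1 was only just below the controls.

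In the other 5 of the 10, D391N replicate 1 lay among or above the controls. SNORA7A, in RPL32, was at 1859, 340 and 521 RPKM against 1529, 1272 and 1632 RPKM, with D391N replicate 1 the highest of the 6. SNORA24, in an intron of PARP16, was at 1557, 35.9 and 97.2 RPKM against 830, 536 and 780 RPKM, and again D391N replicate 1 was the highest and replicates 2 and 3 the lowest. SNORA6, SNORA71D and SNORA31 had log2 fold changes of -1.28 ± 0.87, -2.23 ± 1.06 and -1.29 ± 0.64 (SE, limma adjusted p = 0.465, 0.324 and 0.339).

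**Figure D2:**
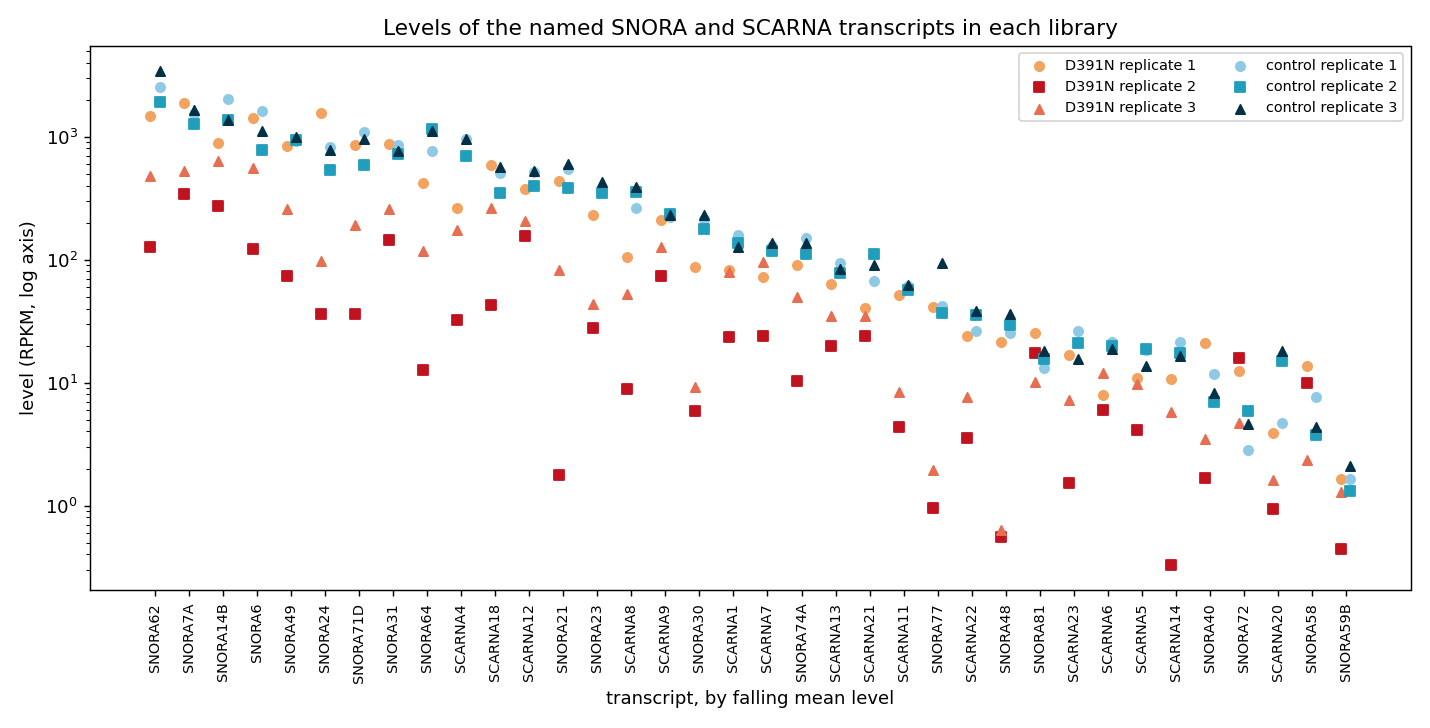
Level in RPKM (y axis, log scale) of the 36 named SNORA and SCARNA transcripts in each library, ordered along the x axis by falling mean level. D391N libraries are in warm and control libraries in blue colours, and the lowest points at most levels are D391N replicate 2, such as 127 RPKM for SNORA62 beside 1899 to 3435 RPKM in the controls.

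Among the transcripts with at least 10 reads, the 5 lowest log2 fold changes belonged to SNORA48, SNORA21, SNORA30, SNORA77 and SNORA64. SNORA48 was at 21.2, 0.553 and 0.635 RPKM against 25.1, 29.1 and 36.3 RPKM, with a log2 fold change of -3.78 ± 1.29 (SE, limma adjusted p = 0.223). The values of D391N replicates 2 and 3 stood for 0.113 and 0.097 estimated reads, so its absence could not be told from a level of up to 3 reads there. SNORA30, in an intron of SRCAP, rested on more reads. It was at 86.6, 5.92 and 9.26 RPKM against 215, 177 and 231 RPKM, with no overlap and a log2 fold change of -3.60 ± 0.94 (SE, limma adjusted p = 0.164).

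SNORA21, in RPL23, was at 439, 1.76 and 81.7 RPKM against 549, 385 and 600 RPKM, and in D391N replicate 2 its value stood for 0.0465 reads. SNORA77, in RANBP1, was at 41.1, 0.955 and 1.96 RPKM against 42.2, 36.6 and 93.2 RPKM, and in D391N replicates 2 and 3 its values stood for under 1 read. In both, D391N replicate 1 overlapped the controls. When every value of fewer than 3 reads was raised to what 3 reads are worth, the median fold change of the 153 transcripts was -1.38.

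Among the transcripts with at least 10 reads, the lowest adjusted p values were 0.117 by limma for a SNORA79 copy (ENST00000408376), 0.129 for SNORA35 and 0.133 for SCARNA21. SNORA35, in an intron of LRCH2, was at 21.1, 3.37 and 7.65 RPKM against 59.2, 59.5 and 61.9 RPKM, so that the controls lay close together and all D391N libraries far below them. Its log2 fold change was -2.86 ± 0.62 (SE). SCARNA21, in an intron of CHD3, was at 40.3, 23.9 and 34.9 RPKM against 66.8, 111 and 89.5 RPKM, a smaller change of -1.43 ± 0.31 (SE) in which the D391N libraries also lay close together. SNORA74B, in an intron of ATP6V0E1, was at 22.3, 11.2 and 12.7 RPKM against 36.0, 33.0 and 44.1 RPKM, a change of -1.34 ± 0.32 (SE, limma adjusted p = 0.149). SNORA79, SNORA35 and SNORA74B were singled out after their values were seen.

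The highest 5 log2 fold changes among the transcripts with at least 10 reads were those of SNORA72, SNORA58, SNORA81, SNORA59B and SNORA40, and 4 of the 5, all but SNORA59B, were copies of a symbol with a more abundant transcript. The SNORA72 transcript in an intron of NUCKS1 (chr1:205700349-205700480, - strand), without a terminal ACA, was at 12.4, 15.9 and 4.71 RPKM against 2.84, 5.88 and 4.59 RPKM. The groups overlapped and the log2 fold change was 1.18 ± 0.51 (SE, limma adjusted p = 0.294). The SNORA58 copy in NDC1, printed above, was at 13.6, 9.86 and 2.36 RPKM against 7.68, 3.76 and 4.31 RPKM. In contrast, the SNORA58 transcript in UBAP2L was at 18.3, 1.47 and 8.12 RPKM against 37.6, 51.2 and 41.8 RPKM, without overlap. The SNORA81 transcript ENST00000458922 had 25.3, 17.4 and 10.02 RPKM against 13.1, 15.5 and 18.0 RPKM, a log2 fold change of 0.093 whose sign turned when D391N replicate 1 (-0.22) or control replicate 1 (-0.024) was left out. The sign of the SNORA58 copy, 0.45, turned without D391N replicate 1 (-0.042).

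The study's lists of DIS3L2-bound RNAs named SNORA23, cross-linked to D391N, and SNORA74A, found in a hybrid with another RNA. SNORA23 was at 228, 27.9 and 43.5 RPKM against 356, 345 and 425 RPKM, with a log2 fold change of -2.52 ± 0.75 (SE, limma adjusted p = 0.191). SNORA74A, also known as U19 and lying in an intron of MATR3, was at 90.8, 10.3 and 49.2 RPKM against 150, 112 and 137 RPKM, with a change of -1.88 ± 0.75 (SE, limma adjusted p = 0.268). Neither group overlapped. SIL1 lies on the opposite strand at SNORA74A, and without strand in the counting, which the sources used here do not state, reads of both could not be told apart. Such antisense genes lay at 23 of the 153 positions.

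SNORA73B, one of the genes for U17, an H/ACA RNA that acts in the cleavage of pre-ribosomal RNA rather than as a pseudouridylation guide, was at 509, 42.4 and 96.2 RPKM against 563, 385 and 471 RPKM. D391N replicate 1 lay among the controls and replicates 2 and 3 far below. Its log2 fold change was -1.87 ± 0.85 (SE, limma adjusted p = 0.309). It was named after its value was seen.

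All 21 SCARNA transcripts were lower in the mean of the D391N libraries. For SCARNA17, with at most 0.346 estimated reads in any library, this direction rests on values without reads. SCARNA17 and the less abundant SCARNA18 transcript (ENST00000516330, 4.95 mean reads) also overlap an SNHG22 transcript with a log2 fold change of -1.57. Of the 16 SCARNA transcripts with at least 10 reads, 14 (87.5%) had groups without overlap, and the median log2 fold change was -1.40. For the 86 SNORA transcripts with at least 10 reads the median was -1.88 and 40 (46.5%) had no overlap. Of all tested transcripts with at least 10 reads, 15.9% lay below the controls without overlap. In D391N replicate 1 the median SCARNA transcript lay at -0.68 and the median SNORA transcript at -0.22, whereas in replicate 2 they lay at -2.87 and -3.48. The scaRNAs thus lay nearer to the controls than the snoRNAs in D391N replicate 2 and farther from them in replicate 1, and this difference was not tested.

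The 10 SCARNA transcripts under 250 bases with at least 10 reads had log2 fold changes between -3.18 and -1.31. SCARNA8 was at 104, 8.81 and 52.2 RPKM against 261, 353 and 389 RPKM, a log2 fold change of -3.18 ± 0.85 (SE, limma adjusted p = 0.169). SCARNA14 and SCARNA20 had log2 fold changes of -2.62 ± 1.12 and -2.52 ± 0.67, and SCARNA11 had -2.26 ± 0.84 (SE, limma adjusted p = 0.289, 0.168 and 0.246). SCARNA22, SCARNA23, SCARNA1 and SCARNA18 followed with -1.91, -1.81, -1.38 and -1.31. The groups did not overlap in these except in SCARNA18 and SCARNA23.

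The long scaRNAs had values nearer 0. SCARNA12 was at 376, 157 and 208 RPKM against 514, 397 and 526 RPKM, a log2 fold change of -1.04 ± 0.39 (SE, limma adjusted p = 0.244). The box C/D scaRNA SCARNA9 was at 210, 73.5 and 127 RPKM against 222, 234 and 230 RPKM, a change of -0.87 ± 0.40 (SE, limma adjusted p = 0.316). SCARNA7, SCARNA5, SCARNA6 and SCARNA13 were at -1.23, -1.13, -1.26 and -1.26. In all 6 the D391N libraries lay below the controls without overlap. GLRX5 lies antisense to SCARNA13.

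Over all transcripts with at least 10 reads, the median log2 fold change was -1.91 for the 85 transcripts under 150 bases, -1.65 for the 10 from 150 to under 250 bases and -1.13 for the 7 of at least 250 bases. Length and log2 fold change had a Pearson's r of 0.27 and a Spearman's rho of 0.28 over the 102 transcripts, and an r of 0.11 over the 92 under 200 bases. This is a description across transcripts of the same libraries. The relation was weaker without the 10 transcripts of at least 200 bases.

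**Figure D3:**
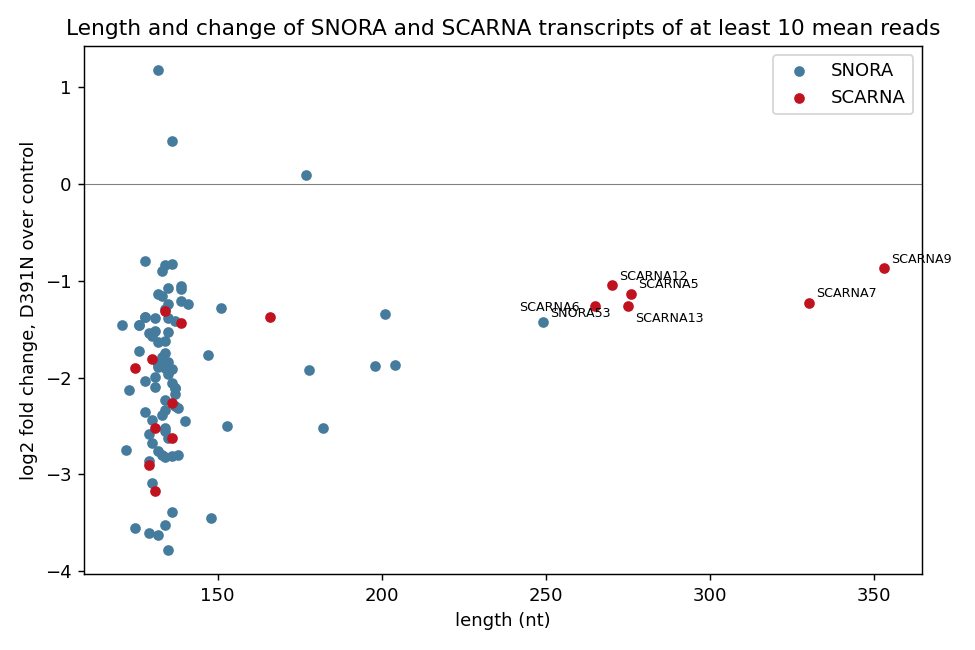
Length in bases (x axis) and log2 fold change of D391N over control (y axis) for SNORA (blue) and SCARNA (red) transcripts with a mean of at least 10 reads. SNORA59B, of 701 bases and with a change of -0.69, lies outside the axis, and the labelled transcripts of at least 250 bases lie between -0.87 and -1.26.

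Other short transcripts had medians nearer 0. Among transcripts with at least 10 reads that were neither snoRNA, scaRNA nor snRNA, the median log2 fold change was -0.39 for the 90 under 150 bases and -0.27 for the 141 from 150 to under 250 bases. The other small nuclear and nucleolar RNAs had low medians too. The 95 SNORD transcripts with at least 10 reads had a median of -1.77, with 27 (28.4%) without overlap below the controls, and the 199 snRNA transcripts had a median of -2.54, with 109 (54.8%). For the SNORD transcripts replicates 1 to 3 of D391N lay at 0.034, -3.72 and -1.89, and for the snRNAs at -0.65, -4.98 and -2.74. The order of the 3 D391N libraries was therefore shared by the 3 kinds of RNA. No test of a difference between the kinds was made.

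The small RNAs were next compared with the genes that host them. In the annotation 141 of the 153 lay within a protein-coding or long non-coding gene on the same strand. For 94 with at least 10 reads the host was measured from its transcripts that do not overlap the small RNA, in 75 hosts, and 86 of the 94 were in protein-coding hosts. The median log2 fold change was -1.87 for the small RNAs and 0.027 for the hosts, and 51 of the 75 hosts lay within 0.5 of no change. The small RNA was lower than its host in 91 of 94 pairs. The log2 ratio of small RNA to host, relative to its mean in the controls, had medians of -0.23, -3.55 and -1.88 across the D391N replicates, compared with 0.08, -0.18 and 0.17 for the controls. In 47 of the 94 pairs this ratio was lower in every D391N library than in every control. They were 30 of the 53 pairs in an intron and 17 of the 41 in an exon of a host transcript. With most hosts near no change, this count is not independent of the changes of the small RNAs themselves, and it has no share of other transcripts beside it.

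Several hosts carry more than one of these RNAs. TAF1D, a subunit of an RNA polymerase I factor, held 6 of the 94: SNORA25, SNORA18, SNORA32, SNORA40, SNORA8 and SNORA1. Their log2 fold changes ran from -2.44 (SNORA1) to -1.05 (SNORA8). That of TAF1D itself lay between 0.57 (without transcripts that overlap SNORA1) and 0.72 (without those that overlap SNORA40). SNORA1 was at 11.1, 1.45 and 1.72 RPKM against 15.3, 17.8 and 18.2 RPKM, and it was the only one of the 6 without overlap. SNORA32 was at 295, 28.1 and 45.8 RPKM against 197, 178 and 223 RPKM, with D391N replicate 1 the highest of the 6 libraries. Transcripts of 1 host thus showed the same order of D391N libraries with unequal changes.

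The gene of dyskerin hosts SNORA36A and SNORA56. SNORA36A was at 52.9, 3.45 and 35.7 RPKM against 68.7, 72.9 and 68.4 RPKM, without overlap, with a change of -1.89, and SNORA56 had -1.54. DKC1 was at 0.10 in its transcripts that do not overlap SNORA36A, and at 0.51 in those that do not overlap SNORA56. A few hosts that code for ribosomal proteins were lower too. RPS2, host of SNORA64 and SNORA10, had -1.29, RPL27A, host of SNORA45 and SNORA3, had -1.23, and RPSA, host of SNORA62 and SNORA6, had -1.07. SNORA64 (-3.53), SNORA10 (-2.39), SNORA45 (-2.09), SNORA3 (-3.09) and SNORA62 (-2.50) all lay below their hosts, and SNORA6 (-1.28) lay close to RPSA. Across the 94 pairs the changes of small RNA and host had an r of 0.065.

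**Figure D4:**
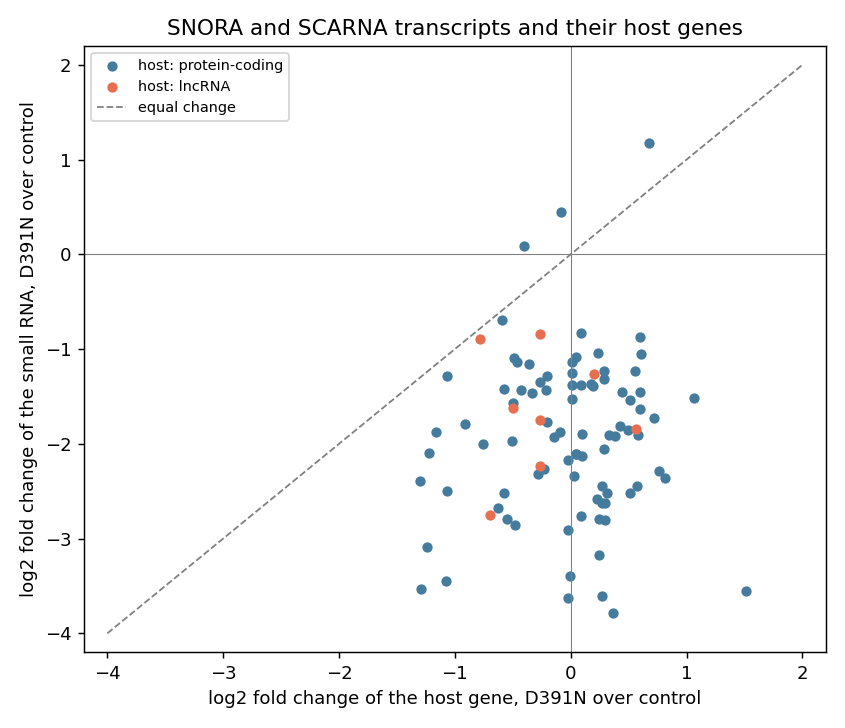
Log2 fold change of the host gene (x axis) and of the SNORA or SCARNA transcript inside it (y axis), for 94 pairs with protein-coding (blue) or long non-coding (orange) hosts. The dashed line is equal change, and 91 of the 94 points lie below it, around a median of 0.027 for hosts and -1.87 for the small RNAs.

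Many SNORA symbols stand for several loci. There were 26 symbols with more than 1 of the 153 transcripts, with up to 7 for SNORA40. The 26 transcripts with the highest level of their symbol were all lower in D391N, with a median log2 fold change of -2.07. The 41 other transcripts of these symbols, called copies here, had 42.1 to 98.5% identity to the leading one. The set is defined by symbol, so that not all of them are copies by sequence. They had a median of -0.79, with 28 lower and 13 higher. Of these copies 29 had a mean under 10 reads, with a median of -0.39, and the 12 with at least 10 reads had a median of -1.78. The transcript with all D391N libraries above all controls was 1 of these copies, of SNORA25 (ENST00000363205), at 1.91, 6.64 and 3.58 RPKM against 0.980, 0.948 and 1.44 RPKM and with a mean of 4.27 reads. It was also the one called higher without D391N replicate 1. The lowest adjusted p of the 153, 0.0905 by limma, belonged to a transcript with the symbol SNORA64 (ENST00000384458) and 2.18 mean reads. It was at 1.61, 0.496 and 0.533 RPKM against 5.49, 6.03 and 5.68 RPKM. Its identity to the leading SNORA64 transcript was only 62.9%, and by sequence it was nearly the same as SNORA10 (ENST00000384084), with which it can share reads.

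**Figure D5:**
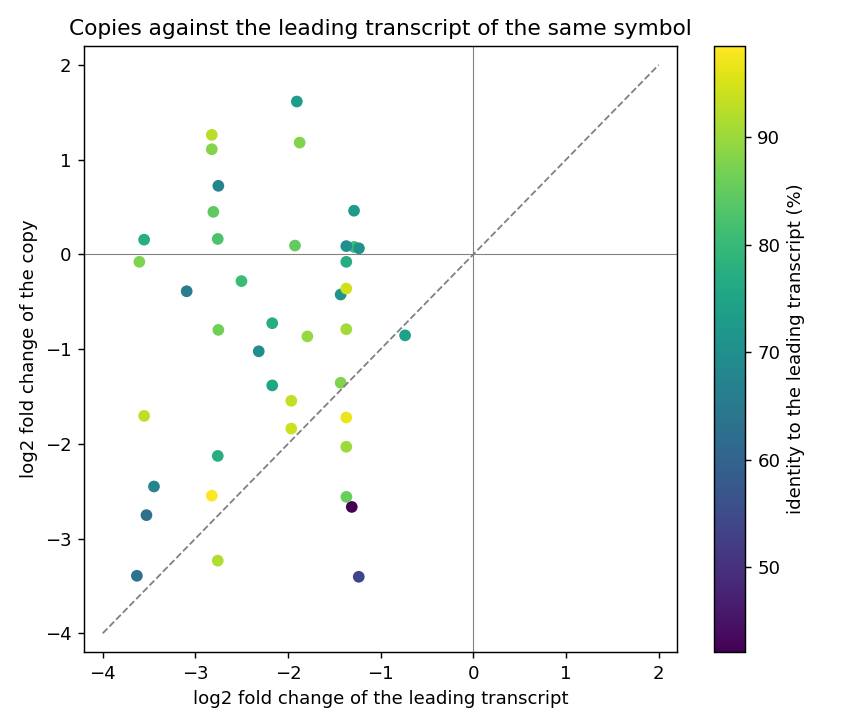
Log2 fold change of the leading transcript of a symbol (x axis) and of each of its 41 copies (y axis), coloured by the identity of their sequences in percent. The dashed line is equal change. All leading transcripts lie below 0, and 13 of the copies lie above 0.

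Near-identical loci share reads, so that their split is uncertain. SNORA7A and SNORA7B had 98.6% identity and similar changes, -1.09 and -1.21. SNORA7B was at 209, 20.6 and 50.7 RPKM against 144, 116 and 162 RPKM, so that D391N replicate 1 was the highest library, as in SNORA7A. A SNORA22 copy (ENST00000384614) had 98.5% identity to the leading transcript, with changes of -2.55 and -2.82. SNORA71A, SNORA71C and SNORA71D, all in SNHG17, had 82.4 to 85.8% identity and changes of -0.84, -1.75 and -2.23.

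The genes that build H/ACA particles were described from a list fixed with earlier results known. From these 17 genes of H/ACA assembly, trafficking and 3′ end trimming, 81 transcripts were tested, and 0 were lower and 1 higher at the limma adjusted threshold, beside 0.0604% of all tested. At an unadjusted p under 0.05 there were 17 (21.0%), close to the 17.6% of all tested. The one was a DKC1 transcript (ENST00000452771) of 6.95 mean reads, at 10.04, 10.5 and 9.78 RPKM against 2.03, 1.41 and 1.89 RPKM. Summed over its 11 tested transcripts, DKC1 was at 184, 256 and 172 RPKM against 167, 200 and 194 RPKM, with overlap. The sums of 11 of the 17 genes lay within 0.5 of no change on the log2 scale.

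Of the other core proteins, GAR1 was at 12.8, 14.6 and 14.2 RPKM against 11.8, 11.5 and 9.21 RPKM, and NHP2 was at 85.8, 73.0 and 90.3 RPKM against 134, 126 and 96.0 RPKM. Both pairs of groups were without overlap, in opposite directions, with log2 changes of the sums of 0.36 and -0.51 (exact permutation test, 2-sided p = 0.10 each, the smallest that 3 against 3 libraries allow). NOP10 was at 34.8, 10.4 and 27.4 RPKM against 53.9, 48.0 and 30.9 RPKM, with overlap. PHAX, an adaptor in the transport of capped small RNAs, was at 104, 159 and 112 RPKM against 75.6, 74.6 and 67.9 RPKM, a change of 0.76. PARN, a nuclease that removes 3′ tails, was at 108, 163 and 127 RPKM against 90.9, 106 and 88.0 RPKM. The RNA of telomerase, TERC, which ends in an H/ACA domain, was at 1.05, 1.69 and 1.76 RPKM against 3.23, 3.17 and 5.13 RPKM, with a log2 fold change of -1.30 ± 0.34 (SE, limma adjusted p = 0.166) and a mean of 10.2 reads. In TERC, unlike in the 10 most abundant SNORA and SCARNA transcripts, D391N replicate 1 was the lowest library.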

How the data were processed

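Total RNA of 3 D391N and 3 control libraries was depleted of ribosomal RNA and sequenced from single ends. The authors removed adapters (cutadapt), mapped the reads with Segemehl against coding and non-coding Ensembl transcripts of hg38 and used BitSeq for quantification. The deposited values are natural log RPKM (posterior mean) and, per the file headers, its posterior variance. Reads that fit several loci were divided by BitSeq, which affects near-identical snoRNAs. No read totals are given, and the reads behind a value were estimated by solving trigamma(reads + 1) for the variance, which covers counting and assignment error only.

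Values were exponentiated and tested as log2(RPKM + 0.1) with limma 3.58.1 (empirical Bayes with trend, R 4.3.3) on the 54671 transcripts whose mean reached 1 RPKM, with a Benjamini-Hochberg adjusted p under 0.05. The code was tested on simulated data. Symbols (88.2% of gene identifiers matched), lengths (90.2% of transcripts), hosts and sequences came from GENCODE for GRCh37 by identifier, with Python 3.11.15 and Biopython 1.88. The transcripts and gene lists were chosen with earlier results of these data known. Named were all transcripts past the threshold, the 10 with the highest mean level, the 5 lowest and 5 highest changes and all scaRNAs among those with at least 10 reads, SNORA23 and SNORA74A, and the pathway genes. The libraries were not paired by replicate number in the main fit. Alternatives changed the pseudocount, the filter, the scaling or the trend, summed levels by gene, added the replicate number as a block, or left out each library.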

Additional observations from a re-analysis of the deposited data

How the results depend on the processing

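No SNORA or SCARNA transcript passed the adjusted threshold with any other pseudocount, filter, scaling, gene-level sums, limma without trend or the replicate block, and none without a single library other than D391N replicate 1, where the count went from 0 to 85 (range over left-out libraries 0 to 85). The number lower without overlap was 65, between 54 and 72 with other settings, and between 66 and 124 with 1 library left out. The highest, 124, came without D391N replicate 1, and 87 were found without control replicate 2. With a library left out such a count cannot fall and tends to rise for any set of transcripts. The counts with 1 library left out are therefore not comparable with 65. The median log2 fold change, -1.62, ran from -2.32 to -0.96 with 1 library left out. It turned to 0.15 with a filter of 0.1 RPKM and to 0.15 with no filter, when all 437 SNORA and SCARNA transcripts counted. Of the 284 under a mean of 1 RPKM, 272 were under 3 reads in every library. The median was -1.55 after median centring, -1.49 after quantile normalization and -1.39 with a pseudocount of 1. The replicate block left the median at -1.62 and gave 90 transcripts at an unadjusted p under 0.05, compared with 67 without it. The share of all tested transcripts under the block was not taken, so this rise cannot be read as particular to these RNAs. Same-numbered libraries deviated together little (correlations 0.087, 0.055 and -0.11), and the main fit did not pair them. The labels do not say whether libraries of the same number were handled together. Of 647 values of the 36 named transcripts under the alternatives, 624 kept direction and side of the threshold, 20 passed it only without D391N replicate 1, and 3 turned sign. They were SNORA81 (ENST00000458922) at -0.22 without D391N replicate 1 and -0.024 without control replicate 1 (range with 1 library left out -0.22 to 0.45), and the SNORA58 copy at -0.042 without D391N replicate 1 (range -0.042 to 1.20). Depth limited the 51 transcripts under 10 mean reads.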
